A study of Gallus gallus with 12 samples.

Results

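The genes described here are 6 enzymes of glycolysis and lactate metabolism (TPI1, GAPDH, PGK1, ENO1, LDHA and LDHB) and the brain-type creatine kinase CKB. They were picked by symbol from the deposited table. All 7 are among its 13106 gene rows, and all 7 passed the filter on low counts that left 9491 genes for testing. The libraries come from 6 chick (Gallus gallus) embryos, with 1 node and 1 lateral library from each. Node libraries hold cells that carried a fluorescent label, placed as gastrulation closed, and that were still in the mature Organiser (Hensen's node) of the axis-elongating stem zone, while lateral libraries hold ectoderm and mesoderm at its side. Tissue of 3 embryos was cut out by hand while alive. That of the other 3 was fixed in modified methacarn, embedded in paraffin and taken from sections by laser capture microdissection (LCM). In each set embryo 1 was at 8 somites and the others at 9, and the labels name no strain, genotype or further treatment.

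Glycolysis splits glucose into pyruvate and yields ATP without oxygen. Lactate dehydrogenase then interconverts pyruvate and lactate, as a tetramer of A (muscle-type) and B (heart-type) subunits, and the A subunit is generally associated with turning pyruvate into lactate. Creatine kinase passes phosphate between ATP and creatine, so that it buffers ATP. In chick embryos the tail bud and the youngest presomitic mesoderm are known for high glycolytic activity under the control of FGF signalling, which makes these enzymes of interest in the tissue around the node.

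Total counts ran from 18568123 to 30997461 per library, so that every one of the 7 genes had at least 1441 counts in every library. GAPDH was the most counted gene in all 12 libraries. The 7 genes together took from 3.77% to 7.43% of a library's counts. The node share was below the lateral share in 5 of 6 embryos. It was 4.93% against 7.43% and 3.77% against 4.44% in hand-dissected embryos 2 and 3, and 4.33% against 5.66%, 3.95% against 6.03% and 4.35% against 5.59% in LCM embryos 1 to 3. Hand-dissected embryo 1 went the other way, with 4.38% in the node and 4.10% in the lateral library. GAPDH is the largest part of this share, with 2.54% of counts in that node and 2.10% in that lateral library. LDHB was also higher in that node (0.617% against 0.491%), while TPI1, PGK1, ENO1, LDHA and CKB each took a lower share there. The 95% Wilson intervals of the shares of the 7 genes together are at most 0.021 percentage points wide and cover counting error only.

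Markers were read first as a check of the tissue labels. Of the Organiser markers, the brachyury gene, listed as T, had more counts in the node than in the lateral library of all 6 embryos. The homeobox gene GNOT1 had more in 4 of 6, and fewer in LCM embryos 1 and 2 (333 against 1251, and 810 against 882). These are raw counts, not scaled to library size. The totals of LCM embryo 2 were 22005887 counts in the node and 24273450 in the lateral library. Relative to these totals GNOT1 was nearly equal in that embryo and not lower in its node. The signal SHH had 0 counts in all LCM libraries and the BMP antagonist CHRD had 0 in the node of LCM embryo 1. Of the neural markers, FABP7, a fatty acid binding protein, had fewer raw counts in the node of all 6, although by little in hand-dissected embryo 1 (7377 against 7891). The totals of that embryo were 26850139 counts in the node and 30997461 in the lateral library. Relative to these totals FABP7 was slightly higher in that node, so the marker was not lower there. SOX2 was scarce, and had more counts in the node in hand-dissected embryos 1 and 3 and in LCM embryo 2 (520 against 3). Levels are given here as CPM, which are counts relative to library size with edgeR's TMM factors. ZIC2 had 5 counts in the lateral library of LCM embryo 3 and 0 in all other libraries. The summed level of the 3 neural plate markers in the table (SOX2, FABP7 and ZIC2), most of it FABP7, ran from 263 to 1685 CPM in hand-dissected nodes and from 249 to 3162 CPM in the lateral libraries beside them. It ran from 313 to 954 CPM in LCM nodes and from 873 to 2308 CPM in LCM lateral libraries. Globin counts stood apart in the lateral library of LCM embryo 2, where HBAA had 11672 counts and the other libraries 0. A further library, the node of LCM embryo 2, shared reads with the lateral library of hand-dissected embryo 1. The latter held 104 genes at 100 or more counts that were seen in no library of the other embryos except that node, and 100 of them were seen there. Their counts correspond to a carried share of 6.22% of the source library, which is 8.76% of the node library. The part of these features in the results was not tested, and values with the carried share subtracted are given below where they differ.

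In the node, 6 of the 7 genes had lower values than in the tissue at its side, and LDHB did not (42.2% of all genes tested had a negative value). Over both methods the log2 fold change, node over lateral, was -0.24 ± 0.12 (SE) for TPI1, -0.40 ± 0.13 for GAPDH, -0.36 ± 0.13 for PGK1, -0.42 ± 0.12 for ENO1, -0.69 ± 0.26 for LDHA and -0.58 ± 0.20 for CKB. These are differences of 1.18-fold to 1.62-fold. LDHB was at 0.12 ± 0.12. None of them passed edgeR's quasi-likelihood test over all genes with Benjamini-Hochberg adjustment (adjusted p = 0.999 for each of the 7), and 0 of the 9491 genes did (0% called). DESeq2 called 241 genes, of which 0 were among the 7 (smallest adjusted p = 0.0871, for CKB).

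Read against the whole table, ENO1, GAPDH, PGK1, LDHA and CKB had an unadjusted p under 0.05 in edgeR (0.0032, 0.0102, 0.0125, 0.021 and 0.0148), all in the lower direction. At that level 0.738% of all genes were lower, 2.68% were higher and 3.41% were either, and none of the 7 was higher. How many of the 7 reached that level depended on the setting. It was 6 with DESeq2 (beside 1114 of 9491 genes in either direction) and 6 with the carried share subtracted (304 of 9412). It was 2 with no replicate block (263 of 9491) and 0 with limma on the deposited normalized signal (557 of 9491). The median log2 fold change was -0.40 for the 7 genes and 0.17 for all genes tested. Relative to that median the values were -0.59 for ENO1, -0.57 for GAPDH, -0.53 for PGK1, -0.41 for TPI1, -0.86 for LDHA, -0.05 for LDHB and -0.75 for CKB. Among the 623 genes with an average log2 CPM of at least 8, which include all 7, 45.4% had a negative value. Among the 157 genes with an average log2 CPM of at least 10, a level set after the values were seen, the median was -0.02 and 54.8% were negative. Of the 36 genes at 12 or more 61.1% were negative. These sets hold 5 and 3 of the 7. These values move with the carried share. Once it was subtracted, all genes had a median of -0.07 and the 7 genes one of -0.55. Because these are bulk samples, fewer cells that hold a transcript and less of it per cell cannot be told apart.

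**Figure D1:**
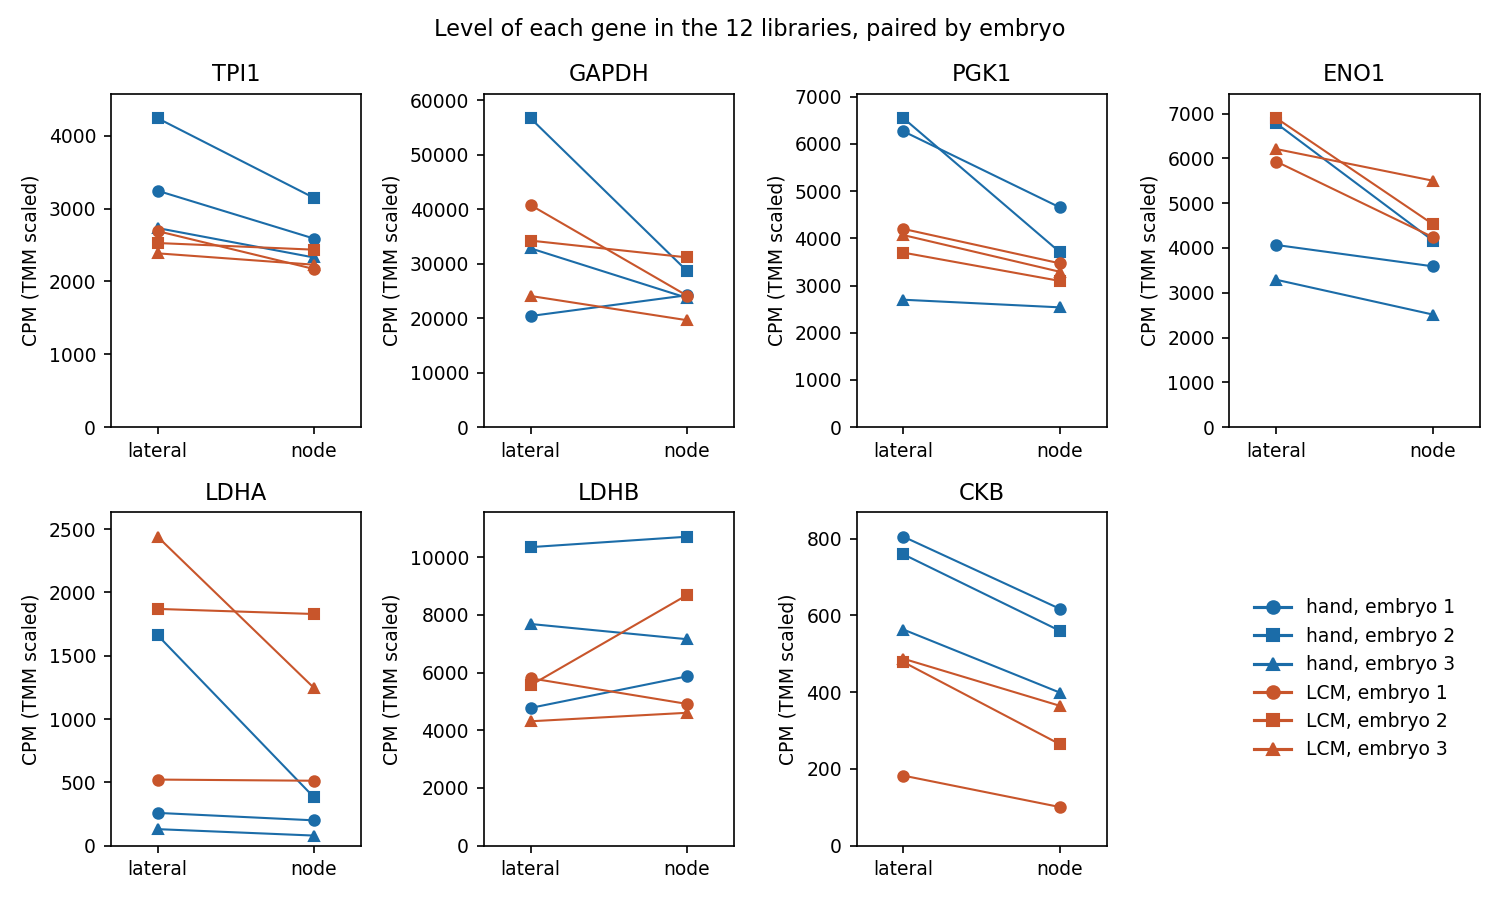
Each panel plots the level of 1 gene, in CPM on the TMM scale from 0, in the lateral and node library of each embryo, with a line joining the libraries of an embryo (blue, dissected by hand; orange, LCM). Lines slope down toward the node for TPI1, PGK1, ENO1, LDHA and CKB in all 6 embryos on this scale, GAPDH slopes up in hand-dissected embryo 1, and LDHB has no common slope.

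TPI1 interconverts the triose phosphates in the upper part of the pathway. In embryos 1 to 3 its node levels were 2588, 3146 and 2328 CPM after hand dissection against 3244, 4239 and 2732 CPM in the lateral libraries. In LCM embryos 1 to 3 they were 2170, 2435 and 2229 CPM against 2690, 2527 and 2385 CPM. The node was lower in 6 of 6 embryos, by 0.24 ± 0.14 log2 CPM on average (mean -0.24, SD, n = 6), yet the node and lateral libraries overlapped in each method. Its range over all 12 libraries, 1.95-fold, was the narrowest of the 7 genes. In LCM embryos the fold change was -0.15 ± 0.19 (log2, SE), and its size depends on the setting. It was -0.06 without LCM embryo 1, -0.34 with DESeq2 size factors, -0.37 without hand-dissected embryo 1 and -0.48 with the carried share subtracted, which takes the TPI1 difference in LCM embryo 2 from -0.05 to -1.02. The value without hand-dissected embryo 1 rests on the same LCM libraries, with the filter and the TMM factors computed anew.

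GAPDH oxidizes glyceraldehyde-3-phosphate and is widely used as a reference gene in expression assays. Its node levels were 24198, 28658 and 23722 CPM in hand-dissected embryos 1 to 3, against lateral levels of 20390, 56669 and 32806 CPM. In LCM embryos 1 to 3 they were 24133, 31141 and 19620 CPM against 40740, 34220 and 24066 CPM. The lateral level was 1.98 times, 1.38 times, 1.69 times, 1.10 times and 1.23 times the node level in hand-dissected embryos 2 and 3 and LCM embryos 1 to 3, and 0.843 times in hand-dissected embryo 1. The direction thus differed in 1 of 6 embryos. With the carried share subtracted the GAPDH difference in LCM embryo 2 moved from -0.14 to -0.97 log2 CPM. Without hand-dissected embryo 1 GAPDH was lower in the node by edgeR (-0.65, adjusted p = 0.00136), and over the other settings that leave out an embryo its adjusted p ran up to 1. It also passed without the filter on low counts (-0.37, edgeR adjusted p = 0.00461), and not with both embryos that share reads left out (-0.62, edgeR adjusted p = 0.128).

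PGK1 makes the first ATP of the pathway. Node levels were 4655, 3707 and 2538 CPM against 6267, 6545 and 2700 CPM in hand-dissected embryos 1 to 3, and 3471, 3098 and 3292 CPM against 4199, 3697 and 4069 CPM in LCM embryos 1 to 3. All 3 LCM nodes lay below all 3 LCM lateral libraries. Its differences were -0.28, -0.26 and -0.31 log2 CPM in LCM embryos and -0.43, -0.82 and -0.09 in hand-dissected embryos. With the carried share subtracted the PGK1 difference in LCM embryo 2 was -1.37. With the deposited size factors and the carried reads left in, LCM embryos 1 to 3 had -0.225, -0.784 and -0.371. Of the scalings run, only TMM before subtraction had LCM values close to each other. ENO1, the enolase that forms phosphoenolpyruvate, had node levels of 3590, 4166 and 2514 CPM against 4067, 6780 and 3290 CPM after hand dissection. In LCM embryos 1 to 3 it had 4242, 4532 and 5502 CPM against 5928, 6897 and 6208 CPM, again with no overlap. The ENO1 difference in LCM embryo 2 was -0.61 log2 CPM and -1.49 with the carried share subtracted. ENO1 and PGK1 were the only members of the 7 with such a gap in LCM libraries, where 2.61% of all genes had one in that direction. None of the 7 had one in hand-dissected libraries, where 2.52% did, or over all 12 libraries together, where 0.0527% did.

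LDHA varied more than any of the other 6 genes, by 30.6-fold over the 12 libraries. Hand-dissected nodes had 200, 382 and 79.7 CPM against 259, 1662 and 131 CPM in the lateral libraries of embryos 1 to 3. LCM nodes had 513, 1829 and 1245 CPM against 522, 1870 and 2440 CPM. Embryo 2 stood apart after hand dissection, with a lateral level 4.36 times that of its node. LCM embryos 1 and 2 had differences of -0.03 log2 CPM each, and LCM embryo 3 one of -0.97. For LCM embryo 2 this holds on the TMM scale with the carried reads left in. With the deposited size factors its LDHA difference was -0.56. After subtraction, with TMM factors computed anew, it was -0.78, although only 1.68% of the node's LDHA counts match the carried share. The log2 fold change was -1.06 ± 0.36 (SE) in hand-dissected embryos and -0.34 ± 0.35 in LCM embryos. The former was -0.57 without hand-dissected embryo 2 and the latter 0.05 without LCM embryo 3. With the carried share subtracted the value in LCM embryos was -0.60. The difference between the methods, 0.72 ± 0.50, did not pass (edgeR adjusted p = 1).

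LDHB, the other subunit, had node levels of 5867, 10705 and 7154 CPM against 4772, 10344 and 7681 CPM in hand-dissected embryos 1 to 3. In LCM embryos 1 to 3 it had 4912, 8683 and 4604 CPM against 5802, 5555 and 4310 CPM. Its node value was the lower one in 2 of 6 embryos, and in 3 of 6 with the carried share subtracted, when LCM embryo 2 moved from 0.64 to -0.18 log2 CPM. The sign of its fold change flips with the scaling. It was 0.17 ± 0.19 in LCM embryos with TMM and -0.02 with DESeq2 size factors, and over both methods 0.12 with TMM and -0.01 with the carried share subtracted. A comparison within each library needs no scaling. LDHB's node minus lateral difference lay above the mean of the other 6 genes in all 6 embryos. It did so by 0.54, 0.97 and 0.30 log2 in hand-dissected embryos 1 to 3 and by 0.21, 0.97 and 0.47 in LCM embryos 1 to 3. Those 6 are the genes with lower node values, so a gene without such a difference would tend to lie above their mean too. The share of all genes above it was not counted, and the comparison shows nothing particular to LDHB. Over both methods 47.8% of all genes tested had a lower fold change than LDHB, so it lay near the middle of the table.

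CKB had the lowest levels of the node and lateral libraries in LCM embryo 1. Hand-dissected nodes had 617, 560 and 399 CPM against 805, 759 and 563 CPM in embryos 1 to 3, and LCM nodes 101, 264 and 364 CPM against 182, 478 and 487 CPM. Its differences in hand-dissected embryos were nearly alike, at -0.38, -0.44 and -0.50 log2 CPM, and those in LCM embryos were -0.86, -0.86 and -0.42. Over both methods the mean was -0.58 ± 0.22 log2 CPM (SD, n = 6). No embryo came near to 0. The carried share bears most on CKB, since 36.2% of its counts in the node of LCM embryo 2 match it, against 24.0% for PGK1, 15.8% for TPI1, 10.7% for ENO1, 7.77% for GAPDH, 6.52% for LDHB and 1.68% for LDHA. With that share subtracted the CKB difference in LCM embryo 2 was -2.22 log2 CPM.

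**Figure D2:**
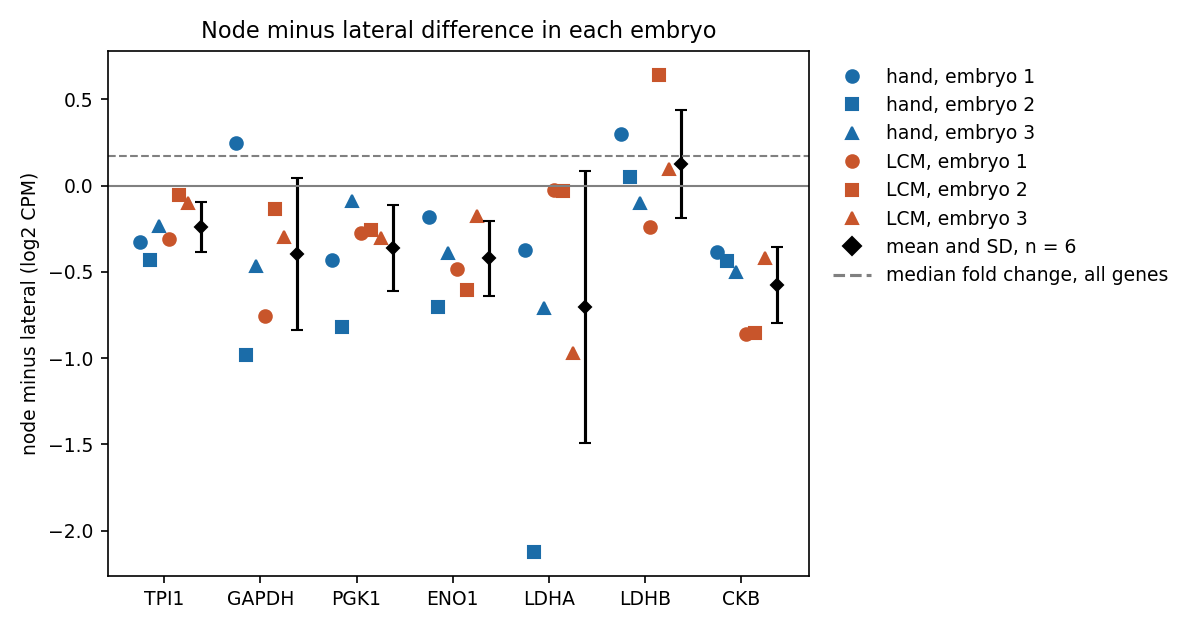
Points give the node minus lateral difference in log2 CPM of each gene in each embryo, and diamonds with bars the mean and SD over 6 embryos; the dashed line marks the median fold change of all genes, 0.17. The points of TPI1, PGK1, ENO1, LDHA and CKB all lie below 0, 2 of those of LDHA at -0.03, and the widest spread is that of LDHA, from -2.12 to -0.03.

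On the TMM scale TPI1, PGK1, ENO1, LDHA and CKB were thus lower in the node of 6 of 6 embryos, a pattern that 1.02% of all tested genes had. GAPDH joined them at 5 or more of 6 embryos, which 7.45% of all genes reached. How many of the 7 have it depends on the scaling. With the deposited size factors there were 4, without LDHA (0.03 in LCM embryo 1), beside 1.38% of all genes. Scaled to total counts there were 3 (TPI1, ENO1 and CKB), beside 0.969% of all genes, since PGK1 was at 0.04 in hand-dissected embryo 3 and LDHA at 0.19 in LCM embryo 1. With the carried share subtracted there were 5, beside 1.66% of all genes. These shares are over all tested genes, most of them at lower levels than the 7, and shares among genes of a like level were not counted.

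Each method was also read on its own. In hand-dissected embryos the log2 fold changes were -0.33 ± 0.19 (SE) for TPI1, -0.40 ± 0.19 for GAPDH, -0.45 ± 0.19 for PGK1, -0.42 ± 0.18 for ENO1, 0.08 ± 0.18 for LDHB and -0.44 ± 0.31 for CKB. PGK1, ENO1 and LDHA had an unadjusted p under 0.05 in edgeR (0.0325, 0.0328 and 0.0117), beside 0.242% of all genes in that direction. The number of the 7 at that level was 5 with DESeq2 size factors (beside 107 of 9491 genes in either direction) and 1 with DESeq2 (564 of 9491). It was 1 with the carried share subtracted (77 of 9412) and 0 with limma (305 of 9491). The values of 6 of the 7 genes were negative, as were those of 50.7% of all genes. Among the 623 genes with an average log2 CPM of at least 8, which include all 7, 64.5% were negative here. In LCM embryos 31.5% of these 623 were. TPI1, PGK1, ENO1, LDHA and CKB were lower in 3 of 3 embryos, as were 11.7% of all genes. None of the 7 and 0 of 9491 genes (0%) passed the adjustment, with 93 genes (0.98%) under 0.05 before it and 40 called by DESeq2. GAPDH was at -0.14 without hand-dissected embryo 2 and at -0.70 without embryo 1, and in the latter case it passed by edgeR (adjusted p = 0.0134).

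In LCM embryos GAPDH was at -0.40 ± 0.19, PGK1 at -0.28 ± 0.19, ENO1 at -0.42 ± 0.18 and CKB at -0.71 ± 0.31. ENO1 and CKB had an unadjusted p under 0.05 in edgeR (0.0335 and 0.0377), beside 1.33% of all genes in that direction, 3.89% in the other and 5.22% in either. The number of the 7 at that level was 5 with the carried share subtracted (beside 484 of 9412 genes in either direction) and 0 with limma (800 of 9491). The values of 6 of the 7 genes were negative, as for 39.4% of all genes, and the same 6 were lower in 3 of 3 embryos, as for 7.04%. Of all genes 2, or 0.0211%, passed the adjustment, none of them among the 7. All genes had a median of 0.36 here and the 7 genes one of -0.34. After subtraction of the carried share they had -0.10 and -0.65. When 1 hand-dissected embryo was left out of the joint model, the 7 genes had a median of -0.56 and all genes one of 0.12 to 0.18. Without LCM embryo 2, which held both the carried reads and the globin counts, ENO1 was at -0.32, GAPDH at -0.52, PGK1 at -0.28 and CKB at -0.63. GAPDH was at -0.20 without LCM embryo 1. It was at -0.62 without hand-dissected embryo 1 and at -0.61 without hand-dissected embryo 2, where it passed in edgeR's joint model of both methods (adjusted p = 0.00524 and 0.00926). The LCM libraries themselves are unchanged in these settings, while the filter and the TMM factors are computed anew. All 7 genes moved by like amounts. Without hand-dissected embryo 1 ENO1 went from -0.42 to -0.64 and LDHB from 0.17 to -0.05, so the shift is not particular to GAPDH. The node effects of the methods did not differ by edgeR's test of the difference for any of the 7 genes (adjusted p = 1 for each), nor for any of 9491 genes (0%), of which 246 (2.59%, 1.97% higher and 0.622% lower in LCM) had an unadjusted p under 0.05 and DESeq2 called 257. The estimate was negative for 1 of the 7 genes, as for 40.4% of all genes. Estimates ran from -0.27 ± 0.43 for CKB to 0.72 ± 0.50 for LDHA, intervals that leave room for differences of the size of the effects themselves.

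The balance of the lactate dehydrogenase subunits was followed as the share of LDHA in the counts of LDHA and LDHB. The transcripts differ in length and lengths were not used here, so the shares compare libraries and not the amounts of the subunits. In hand-dissected nodes LDHA made up 3.30%, 3.44% and 1.10% of these counts in embryos 1 to 3, and in the lateral libraries 5.14%, 13.8% and 1.67%. In LCM nodes it made up 9.45%, 17.4% and 21.3%, and in LCM lateral libraries 8.25%, 25.2% and 36.1%. The highest share was 32.8 times the lowest, while the 95% Wilson intervals were at most 0.40 percentage points wide. LDHB counts exceeded LDHA counts in all 12 libraries, by 1.77-fold to 89.8-fold.

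**Figure D3:**
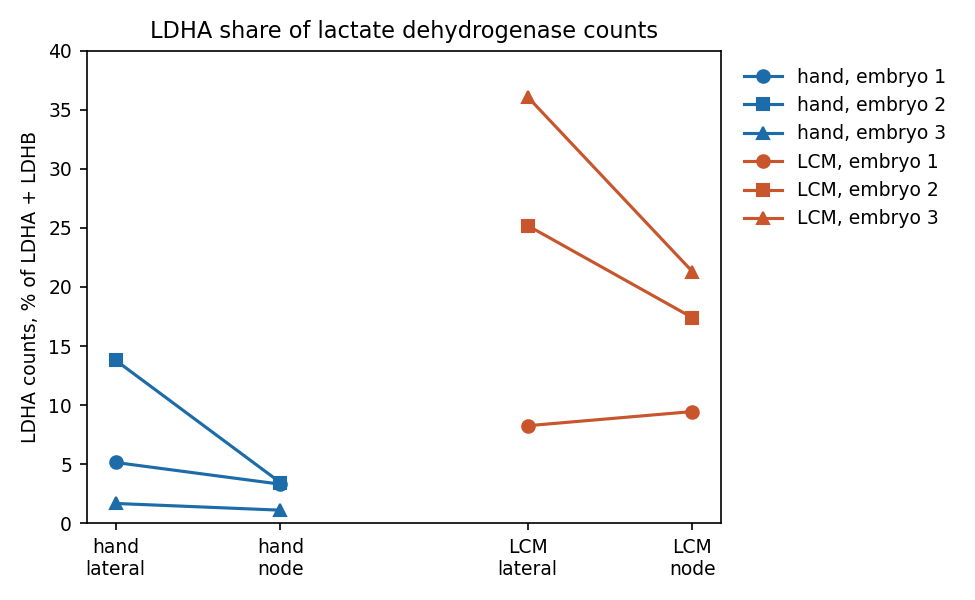
The share of LDHA in the counts of LDHA and LDHB, in percent from 0, is plotted for lateral and node libraries of each embryo, with a line per embryo. Shares are lower in the node in 5 of 6 embryos, and those of LCM embryos lie between 8.25% and 36.1% against 1.10% to 13.8% after hand dissection.

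Within embryos the log2 ratio of LDHA to LDHB was lower in the node in 5 of 6, by 0.67, 2.17 and 0.61 in hand-dissected embryos 1 to 3 (values of -0.67, -2.17 and -0.61) and by 0.68 and 1.07 in LCM embryos 2 and 3 (-0.68 and -1.07). In LCM embryo 1 it was higher by 0.21. The mean difference was -0.83 ± 0.78 (SD, n = 6), and an exact two-sided sign-flip permutation test over the 6 embryos gave p = 0.0625, where the smallest p that 6 pairs allow is 0.0312. Without hand-dissected embryo 2 the mean was -0.56. Between methods the ratio, from counts summed over each embryo, was -4.66 ± 1.40 after hand dissection and -2.15 ± 1.09 in LCM embryos (SD, n = 3 each). The embryo values were -4.52, -3.34 and -6.13 against -3.36, -1.87 and -1.23, so that hand-dissected embryo 2 and LCM embryo 1 were nearly equal. The difference of 2.51 did not pass an exact two-sided permutation test (p = 0.20), for which 3 against 3 embryos allow no p under 0.10.

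Laser capture and hand dissection were compared on counts summed over each embryo, and different embryos and different methods cannot be told apart in this comparison. CKB was lower in LCM embryos by 0.97 on the log2 scale (-0.97 ± 0.45, SE). CKB levels ran from 101 to 364 CPM in LCM nodes and from 399 to 617 CPM in hand-dissected nodes. In lateral libraries they ran from 182 to 487 CPM in LCM and from 563 to 805 CPM after hand dissection. The share of all genes with such gaps in both tissues was not counted, so they are not read as a trait of CKB. LDHA was higher by 1.63 ± 0.80, yet the lateral library of hand-dissected embryo 2 lay inside the LCM range. ENO1 was at 0.44 ± 0.29, GAPDH at -0.13 ± 0.31, PGK1 at -0.30 ± 0.31, TPI1 at -0.37 ± 0.25 and LDHB at -0.51 ± 0.32. None passed (edgeR adjusted p from 0.404 for CKB to 0.885 for GAPDH), and 0 of 9113 genes did (0%), with 1210 at an unadjusted p under 0.05 (13.3%, of which 7.83% were lower and 5.44% higher in LCM, and none of the 7) and 720 called by DESeq2. Of the 7 genes 5 had negative values, as had 48.2% of all genes. The mean log2 CPM of CKB and TPI1 in every LCM embryo lay below that in every hand-dissected embryo, as for 15.7% of all genes, and none of the 7 lay above throughout, as 7.92% did. Genes of high count leaned the same way, with a median of -0.34 among the 157 genes of an average log2 CPM of at least 10. Marker levels differed between the methods too. The 4 presomitic mesoderm markers summed to 60.0 to 113 CPM in hand-dissected nodes and 72.6 to 90.3 CPM in their lateral libraries, against 343 to 575 CPM in LCM nodes and 38.1 to 681 CPM in LCM lateral libraries. DLL1, a Notch ligand and 1 of these 4, had 53 to 470 counts in hand-dissected and 1011 to 10355 counts in LCM libraries. TBX6 and MSGN1 did not share that gap. TBX6 had 350 to 1629 counts in hand-dissected and 0 to 4412 in LCM libraries, and MSGN1 had 133 to 874 against 0 to 1103. The 4 endoderm markers summed to 304 to 1120 CPM in hand-dissected and 1.1 to 329 CPM in LCM libraries. The part of these markers in the values was not tested. Without LCM embryo 1 the CKB value was -0.53, and without hand-dissected embryo 2 the LDHA value was 2.98.

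Over the 12 libraries, which share embryos, method and scaling, the 7 genes did not follow 1 pattern. As a description, log2 CPM of ENO1 and LDHA correlated at r = 0.89 and that of PGK1 and TPI1 at 0.72, while LDHA and LDHB were at -0.12 and ENO1 and CKB at -0.03. Likeness to other genes was read among 3255 named genes outside the 7 with an average log2 CPM of at least 5. Those most like LDHB were COX7A2 (r = 0.97), a subunit of cytochrome c oxidase, and NDUFA4 (0.94), a protein of the respiratory chain. Those most like LDHA were POLE3 (0.86), a histone-fold subunit of DNA polymerase epsilon, and the glycolytic mutase PGAM1 (0.84). ENO1 was closest to RRP36 (0.91), which acts in ribosome biogenesis, and POLE3 (0.83), GAPDH to the splicing protein gene SNRPG (0.89) and the ribosomal protein gene RPL38 (0.88), and CKB to TSSC1 (0.95) and PISD (0.93), a phosphatidylserine decarboxylase. PGK1 was closest to HNRNPH3 (0.76) and S100A11 (0.76), and TPI1 to C16orf93 (0.87) and AHCY (0.81).

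Other enzymes of the pathway had values in both directions. Of 21 other glycolytic enzymes listed 10 were tested, of which 6 had positive and 4 negative values over both methods, with a median log2 fold change of 0.22 against 0.17 for all genes. None passed by edgeR and none was lower in 6 of 6 embryos. PFKP, a phosphofructokinase that commits sugar to glycolysis, was at -0.82 ± 0.43 (SE) and lower in the node of 5 of 6 embryos. PGAM1, the step between PGK1 and ENO1, was at 0.40 ± 0.42. The brain enolase ENO2 (5.01 ± 2.58) was unevenly counted. It had 383, 16 and 234 counts in hand-dissected nodes, 284, 0 and 0 in the lateral libraries, and 10 in a single LCM library. The latter is the node of LCM embryo 2, and the source library of its carried reads is the one with 284. The carried share is not subtracted from these counts. The sugar isomerase GPI (0.05 ± 0.21) and the pyruvate kinase PKM (-0.18 ± 0.24) were abundant and showed no common direction, with lower node values in 3 and 4 of 6 embryos. The hexokinase HK1 was counted in all 12 libraries (0.56 ± 1.09), while HK2 had 1 count in a single library.

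**Figure D4:**
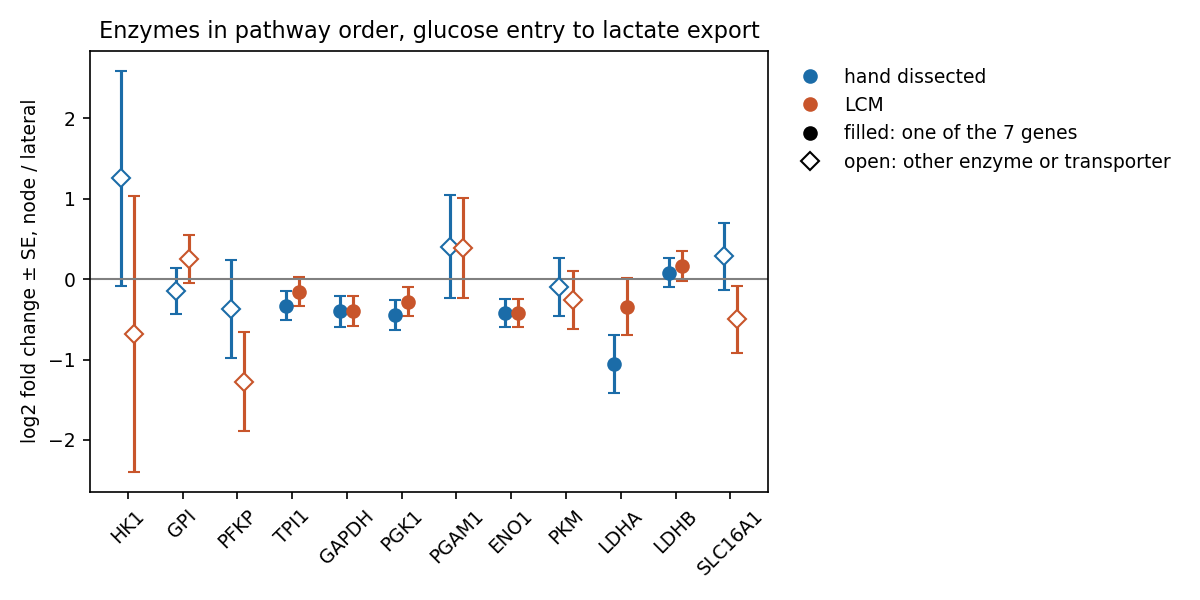
The log2 fold change of node over lateral, with its SE as a bar, is plotted for enzymes in pathway order, with the lactate transporter SLC16A1 last (blue, dissected by hand; orange, LCM; filled, 1 of the 7 genes; open, others). TPI1, GAPDH, PGK1 and ENO1 lie between -0.45 and -0.15 in both methods, with short bars, and PGAM1 and LDHB lie above 0 in both on the TMM scale; LDHB is at -0.02 in LCM embryos with DESeq2 size factors.

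Of 22 genes for the fate of pyruvate and lactate 13 were tested, 8 with positive and 5 with negative values. The leading ones were PDP1, a phosphatase that switches on pyruvate dehydrogenase (1.03 ± 0.61, SE), and SLC16A7, a monocarboxylate transporter (-5.52 ± 3.61). SLC16A7 was unevenly counted, with 0 to 442 counts in a library, and was lower in the node of 4 of 6 embryos. Next came PDHX (1.32 ± 1.05) and DLAT (0.41 ± 0.45), both parts of the pyruvate dehydrogenase complex. Of 20 genes of glucose uptake and side branches 12 were tested, 6 positive and 6 negative, led by the transketolase TKT (0.23 ± 0.22), the glucose transporter SLC2A8 (-0.65 ± 0.93), TALDO1 (-0.19 ± 0.31) and FBP1 (1.76 ± 3.00). Of 12 creatine and phosphagen genes 5 were tested, 2 positive and 3 negative, among them the adenylate kinases AK3 (-3.05 ± 3.5) and AK4 (-1.82 ± 3.78), and GATM (1.37 ± 2.11), which makes the precursor of creatine. AK3, AK4 and GATM were unevenly counted, with 0 to 323, 0 to 581 and 0 to 89 counts in a library. The mitochondrial creatine kinases CKMT1A and CKMT2 had at most 11 counts in a library. The muscle-type CKM, also listed, matched no symbol among the deposited gene rows. Of 20 genes of the oxygen response, a pathway known to drive LDHA, 13 were tested, 6 positive and 7 negative. P4HA2, a collagen prolyl hydroxylase, was at 1.87 ± 1.18 and higher in 6 of 6 embryos, which 3.33% of all genes were. Its counts were near 0 in LCM embryos 1 (16 in the node against 0) and 2 (20 against 1). The source library of the reads carried into the node of LCM embryo 2 had 312, and the carried share is not subtracted here. The oxygen sensor EGLN1 was at 0.45 ± 0.33, BNIP3 at -0.58 ± 0.62 and VEGFA at -1.87 ± 2.23. VEGFA had at most 68 counts in a library. No gene of these 4 lists passed over all genes by edgeR.

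Between the methods 6 of the 53 list genes tested had an unadjusted p under 0.05, beside 13.3% of all genes, and none passed the adjustment. The glucose transporter SLC2A3 was lower in LCM embryos (-2.90 ± 0.71, edgeR adjusted p = 0.226), as were GATM, with 0 counts in all 6 LCM libraries, and ENO2 (-6.20 ± 2.62, adjusted p = 0.351). HK1 (2.19 ± 0.63, edgeR adjusted p = 0.235), the carbonic anhydrase CA9 (2.12 ± 0.72, adjusted p = 0.263) and BNIP3L (1.35 ± 0.51, adjusted p = 0.303) were higher. By the coordinates in the deposited table, whose build is not named in these sources, GAPDH, TPI1 and LDHB lie on chromosome 1 at 76434647 to 76437498, 76754054 to 76757054 and 67177978 to 67190068, LDHA and CKB on chromosome 5 at 11936824 to 11942582 and 50128409 to 50229625, PGK1 on chromosome 4 at 12898194 to 12909392 and ENO1 on chromosome 21 at 3215099 to 3227491, each span covering the gene with its introns.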

How the data were processed

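Total RNA of small tissue pieces was sequenced as 12 libraries, amplified with the SMARTer low RNA kit per the labels' protocols. Raw counts by Ensembl gene ID were deposited by the authors. Their second table, also deposited, is a normalized signal, and its values equal the counts over a single size factor for every library. Bowtie2 2.2.3 is listed, per the submitters' processing notes. No source used here names the counter, annotation, genome build or use of strand, so reads of related copies such as ENO1, ENO2 and the LDH genes, or of antisense partners, may be shared.

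Tests used edgeR 4.0.16 under R 4.3.3 (the quasi-likelihood fit on counts, TMM, filterByExpr with a minimum count of 10 and total of 15), on all genes, with Benjamini-Hochberg adjustment and a threshold of 0.05. The embryo was a block, because the labels name 1 embryo for each pair of libraries; deviations from group means correlated within pairs at 0.03 to 0.473. Replicates are embryos. CPM are TMM scaled, and differences of log2 CPM use a prior count of 2. Intervals cover counting error only. Alternatives used DESeq2 1.42.0, limma 3.58.1 on log2 of the deposited normalized signal plus 1, other scalings and filters, the carried share subtracted, no block, and each embryo left out. All 7 genes were named; from each list up to 4 genes with the smallest p, and up to 2 between methods, with GPI, PKM, PGAM1, HK1, HK2, CKMT1A and CKMT2 added to fill in the pathway after their values were seen. A few named genes of these lists are not reported here. The genes and lists were chosen with earlier results of these data known.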

Additional observations from a re-analysis of the deposited data

How the results depend on the processing

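The LDHA to LDHB ratio kept its direction under every alternative run. For node against lateral, some of these could not change it. Scaling does not alter a ratio within a library, and dropping the block leaves the mean difference as it was. Leaving out embryos and subtracting the carried share could move it. With 5 embryos, or between 3 and 3, the design allows no p under the threshold, so that the side of the threshold says nothing there. The values ran from -1.04 to -0.56 for node against lateral and from 1.78 to 3.17 for LCM against hand dissection when each embryo was left out. With no replicate block (6 node against 6 lateral libraries) its difference was -0.83, with p = 0.437 in an exact permutation test. Counts of genes called depended on the tool. For node against lateral over both methods there were 36 without the filter, 241 with DESeq2 and 0 to 4 with an embryo left out. In hand-dissected embryos there were 7, 40 and 0 to 1. In LCM embryos there were 33, 878 and 1 to 9, and 0 with limma, 0 with the carried share subtracted, 0 without both embryos that share reads (chosen after seeing the data) and 1 with no replicate block. For the difference of the methods' node effects there were 5 without the filter and 257 with DESeq2. For LCM against hand dissection there were 1 with DESeq2 size factors, 19 without the filter, 720 with DESeq2, 124 with limma, 7 without the embryos that share reads and 0 to 134 with an embryo left out.

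The signs below flipped, and the cause was not tested. LDHB in LCM embryos was at -0.015 with DESeq2 size factors, DESeq2 and limma, -0.11 with the carried share subtracted and -0.10 without the embryos that share reads. Over both methods it was at -0.014 and -0.048 in the latter cases. With an embryo left out it ran from -0.066 to 0.39 in LCM embryos, from -0.033 to 0.20 over both methods and from -0.003 to 0.19 in hand-dissected embryos. LDHA in LCM embryos ran from -0.56 to 0.051 and GAPDH between methods from -0.34 to 0.10. Differences of node effects flipped with DESeq2 size factors, DESeq2 and limma to -0.19 for ENO1 and GAPDH, -0.024 for PGK1, -0.016 for TPI1 and -0.11 for LDHB. For these genes in the same order they were -0.29, -0.27, -0.20, -0.15 and -0.19 with the carried share subtracted, and -0.10 for LDHB without the embryos that share reads. With an embryo left out they ran, in that order, from -0.33 to 0.12, -0.48 to 0.21, -0.21 to 0.28, -0.069 to 0.28 and -0.24 to 0.31. With no replicate block no call on the 7 genes changed. A prior count of 0.5 moved none of the embryo means by as much as 1 SD.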
